A study of Mus musculus with 24 samples.

Results

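Bdnf, Npas4 and neurotrophin signalling were followed through the dorsal hippocampus of trained and untrained mice. The genes were chosen by name: Bdnf, Npas4, Ntrk2, Ntrk3, Vgf and Scg2, 6 of the 51826 genes in the count table. RNA was sequenced in 24 libraries from C57BL/6j mice aged 2 to 4 months, male by the labels, either WT or CBP KIX/KIX. For its experiments in general the paper reports mice of both sexes. CBP KIX/KIX mice carry point mutations in the KIX domain of the coactivator CBP, in the whole body from development onward. Their WT littermates served as controls, and CBP KIX/KIX mice are called mutants. RNA-Seq 1 held 3 WT homecage libraries, 3 WT MWM libraries and 3 from mutants after MWM, taken 1 h after training on day 3 of the Morris water maze (MWM), a spatial task with a hidden platform. RNA-Seq 2 held 3 WT homecage libraries, 4 WT CFC libraries, 4 mutant CFC libraries and 4 mutant homecage libraries, the trained ones taken 1 h after contextual fear conditioning (CFC), in which a mouse receives a single foot shock in a new chamber. Homecage mice were not trained, and those set against CFC were handled. The task, the library type (total RNA depleted of ribosomal RNA in RNA-Seq 1, polyA-selected RNA in RNA-Seq 2) and the sequencing run changed together between the experiments and cannot be told apart. For the mutant homecage libraries the labels do not state the RNA selection. RNA-Seq 1 held no untrained mutants, and the point mutations cannot be read from counts per gene, so the genotype rests on the labels.

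Brain-derived neurotrophic factor, the product of Bdnf, is made as a precursor, packed into dense-core vesicles and released by active neurons. It binds the receptor tyrosine kinase TrkB, the product of Ntrk2, while the related ligand NT-3 prefers TrkC, the product of Ntrk3. Both receptors pass the signal to the MAP kinase, PI3 kinase and phospholipase C pathways. Npas4 is a transcription factor of the bHLH-PAS family that neurons make within minutes of calcium entry, and Bdnf is among its known targets. Vgf and Scg2 encode granin-like proteins of the dense-core vesicle that are cut into secreted peptides, and VGF is known to be induced by neurotrophins. Bdnf, Npas4, Vgf and Scg2 are textbook targets of CREB, whose phosphorylated form binds the KIX domain of CBP.

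CREB binds the cyclic AMP response element (CRE), whose full palindrome is TGACGTCA. The stretches below hold the CRE-like letters found within 250 bases before a RefSeq transcript start, and are shown because the mutated domain serves this factor. The windows ran from 250 bases before to 50 bases after each start (RefSeq, GRCm38.p6). They covered Npas4 with 1 window, Scg2 with 1, Bdnf with 7 and Ntrk2 with 1. Vgf and Ntrk3 had no window and were not searched. Capitals mark the matched letters and each stretch is read 5′ to 3′ on the strand of its gene.
Npas4 (chr19:4990128-4990157, minus strand): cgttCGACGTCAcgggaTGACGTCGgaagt
Scg2 (chr1:79440076-79440105, minus strand): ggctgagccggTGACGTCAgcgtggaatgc
Bdnf (chr2:109692388-109692417, plus strand): atatgacagctCACGTCAaggcagcgtgga
Scg2 held the full palindrome, 68 to 61 bases before its start. Npas4 held a pair of variants, CGACGTCA and its reverse complement TGACGTCG, between 182 and 162 bases before the start, and 1 of the 7 Bdnf windows held CACGTCA 37 to 31 bases before the start. On either strand, TGACGTCA stood in 1.79% of the 32851 windows of all genes, CGACGTCA in 0.505% and CACGTCA in 2.01%. The half-site TGACG, which all of these contain on one strand or the other, stood in 20.8%. A match describes letters in a window and does not show that a factor was bound. The gene positions given below are of GENCODE, whose starts can differ from those of RefSeq, and the stretches lie inside those positions.

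By total count the libraries ranged from 38.2 to 65.7 M in RNA-Seq 1 and from 15.4 to 46.1 M in RNA-Seq 2 (M, 1000000 counts), so that a count of 3 corresponded to between 0.0537 and 0.175 CPM (counts in every 1000000, after upper-quartile normalization over all 24 libraries). All 6 genes lay well above that floor in every library. Each of the 49 cell type markers examined was detected in all 24 libraries, excitatory neuron markers summed to between 4600 and 7866 CPM, and markers of the CA1, CA3 and dentate granule fields were all present. Choroid plexus markers summed to between 27.0 and 4097 CPM and varied within every group. In the mutant homecage group, replicate 3 stood apart from its label. It held 105 CPM of Fos against 2.55, 1.64 and 4.32 in the other 3 libraries of that group, and 553 CPM of Arc against 69.1, 47.7 and 70.4. Replicate 4, and in part replicate 2, stood apart in other members. Several results that rest on these libraries are given with and without them, and others in a single setting or not at all.

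Npas4, the activity-induced transcription factor, lay between 5.30 and 14.6 CPM in RNA-Seq 1 in trained and untrained mice alike, and in RNA-Seq 2 it was higher after CFC than in homecage in both genotypes once a single mutant homecage library was set aside. The gene lies on chromosome 19 (4984355 to 4990316, minus strand, GRCm38). In the 3 WT homecage libraries of RNA-Seq 1 it was at 11.8, 13.8 and 5.30 CPM, and in the 3 WT MWM libraries at 6.97, 14.6 and 7.63 CPM. Mutant MWM libraries held 9.79, 12.5 and 10.5 CPM. These 3 groups overlapped throughout. RNA-Seq 2 gave another picture, with WT homecage libraries at 6.62, 9.08 and 5.93 CPM and WT CFC libraries at 22.9, 15.2, 19.2 and 23.9 CPM. Mutant CFC libraries held 19.8, 17.1, 17.1 and 20.2 CPM, inside the WT CFC range. Mutant homecage libraries held 8.84, 4.97, 118 and 5.79 CPM. The 4 WT CFC libraries all lay above the 3 WT homecage libraries, as did 2.68% of the 15050 genes with a mean of at least 1 CPM in RNA-Seq 2, whereas in the mutants replicate 3 of the homecage group exceeded every CFC library and the other 3 homecage libraries lay below all of them.

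**Figure D1:**
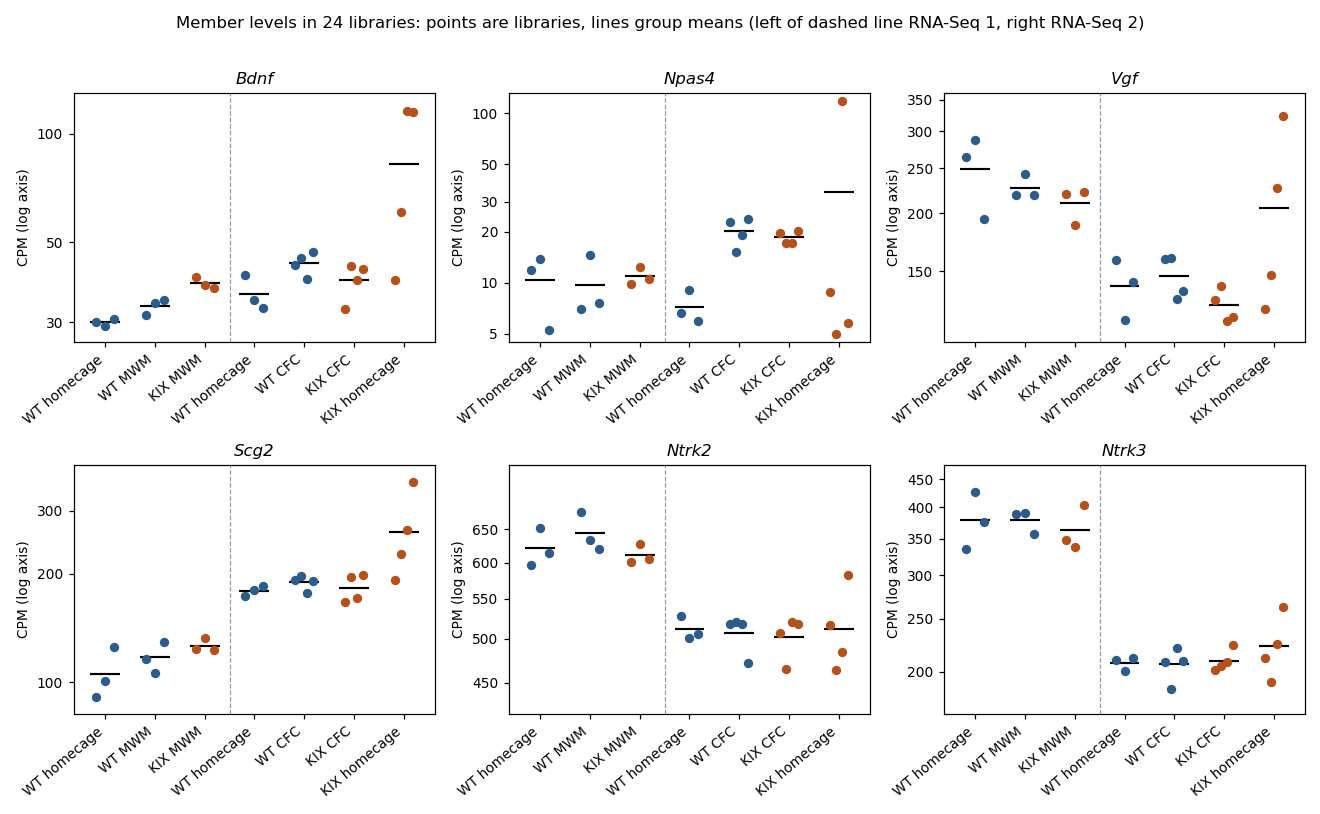
Level of each gene in the 24 libraries, in CPM on a log axis that differs between panels, with points for libraries (blue WT, orange mutant, named KIX on the axis) and lines for group means. Npas4 is higher in all 4 WT CFC libraries (15.2 to 23.9 CPM) than in the 3 WT homecage libraries of RNA-Seq 2 (5.93 to 9.08 CPM), and the mutant homecage group spreads widely in Bdnf, Npas4, Vgf and Scg2 but less in Ntrk2 and Ntrk3.

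Which genes respond to learning in WT mice was asked over both experiments together, with the experiment as a block and 3 factors of unwanted variation (RUVr, estimated from the residuals of a first fit). Npas4 rose, with a log2 fold change of 0.70 (SE 0.13) and an adjusted p of 0.0292 (edgeR quasi-likelihood test, Benjamini-Hochberg over 22038 genes). It was the 1 member of 6 that passed, where 1.05% of all genes tested did (231 of 22038, 89 higher and 142 lower, or 88 and 47 with TMM normalization) and 0.404% passed as higher. Of the members, 3 had an unadjusted p under 0.05, as did 17.3% of all genes. The median log2 fold change was 0.069 over the 6 members and -0.027 over all genes tested. Without the RUVr factors Npas4 kept the log2 fold change, at 0.72, but its adjusted p was 0.725, and 9 genes passed. Libraries of the same replicate number deviated together between WT homecage and trained groups, and with the number as a block the adjusted p of Npas4 was 0.0340 with the factors, when 905 genes passed, and 0.608 without them, when 12 did. Over the 21 alternatives its adjusted p ranged from 5.13e-06 to 0.725 and passed in 14. It no longer passed with 1 RUVr factor fewer (adjusted p = 0.103), with GC normalization (0.0567), without WT MWM replicate 1 (adjusted p = 0.0506), without WT MWM replicate 2 (0.132) and without WT homecage replicate 1 of RNA-Seq 2 (0.0662).

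Within each experiment the Npas4 values differed in size. The log2 fold change after MWM was -0.075 (SE 0.31, adjusted p = 0.945, edgeR fit over the 9 libraries of RNA-Seq 1), in a comparison in which 0.0135% of genes passed (3, or 1 with the replicate block), 0.00898% as higher, and 10.9% had an unadjusted p under 0.05. After CFC it was 1.45 (SE 0.85) in the fit over all 15 libraries of RNA-Seq 2, where 0% of 18851 genes passed the adjusted threshold and 450 (2.39%) had an unadjusted p under 0.05. DESeq2 gave Npas4 a log2 fold change of 1.49 there and no adjusted p. That fit takes its spread from all 4 groups, mutant homecage included. Fitted over the WT libraries alone, the log2 fold change was 1.46 with an adjusted p of 0.0190 and 21 genes passed. Without mutant homecage libraries 3 and 4 it was 1.45 with an adjusted p of 0.00738 and 20 genes passed. Over the 13 alternatives the adjusted p ranged from 0.00738 to 1. The difference of the Npas4 response between the experiments was 1.53 on the log2 scale (SE 0.44, adjusted p = 0.534, edgeR interaction without RUVr factors), so it did not pass after adjustment.

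Npas4 did not pass the comparison of genotypes after learning (log2 fold change 0.046, SE 0.084, adjusted p = 0.837, edgeR with 4 RUVr factors). Within the mutants, CFC against homecage gave -0.84 (SE 0.74, adjusted p = 0.683, edgeR over 15 libraries). Without homecage replicate 3 that value was 1.496 (SE 0.21, adjusted p = 0.00605, 16 of 19066 genes passed). Without replicates 3 and 4 it was 1.42 (SE 0.23, adjusted p = 0.0357, 22 of 19770 genes passed). Its direction thus rested on 1 library, and over the 14 alternatives the adjusted p ranged from 0.00605 to 0.979. The interaction of genotype with training was -2.30 (SE 1.13) with all libraries and 0.033 (SE 0.29) without replicate 3, with adjusted p of 0.950 and 1.00.

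The other activity-induced genes moved more broadly. All 7 genes of the reference list (Fos, Fosb, Junb, Egr1, Egr2, Arc and Nr4a1, immediate early genes of active neurons) rose with learning in WT mice. Their median log2 fold change was 1.08 (edgeR, adjusted p between 3.48e-05 and 0.0013), where 0.404% of all genes passed as higher. Without RUVr factors 6 of the 7 passed, where 0.0408% of all genes did. The list was chosen with earlier results of these data known. The paper names all of these but Egr2 as raised by learning, and Fosb, Junb and Nr4a1 as lower in trained mutants. Their counts are thus a description and not a separate test. After MWM alone, where Npas4 did not pass, Fos rose by 1.14 and Egr2 by 2.21 on the log2 scale (adjusted p = 0.0125 and 0.0229). In the mutants after learning all 7 had a value below 0, with a median of -0.31, and 5 passed, where 2.84% of all genes passed (610 of 21489) and 1.66% passed as lower, and 0 passed without RUVr factors, when 4 genes did. In mutant CFC against mutant homecage 0 of the 7 passed with all libraries (2 higher and 5 lower, median -0.24). Without homecage replicate 3 all 7 were higher and 6 passed, where 0.0839% of all genes did (16 of 19066). Npas4 was not among the genes that differed by genotype in either setting.

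Bdnf, the ligand, passed the test in none of the 9 comparisons, and its widest spread was in untrained mutants. It lies on chromosome 2 (109674700 to 109727007, plus strand), with 11 annotated transcripts, and shares 896 exon bases with the antisense gene Gm45346. Whether the counting used the strand is not given in the sources used here, so part of its count is less certain. The 3 WT homecage libraries of RNA-Seq 1 held 30.1, 29.4 and 30.7 CPM and the 3 WT MWM libraries 31.4, 34.0 and 34.5 CPM. The 3 mutant MWM libraries, at 40.2, 38.0 and 37.3 CPM, lay above all of these. The ranges of the 3 groups of RNA-Seq 1 did not overlap, although each step was small. Among the 15602 genes with a mean of at least 1 CPM in that experiment, 4.57% had all WT MWM libraries above all WT homecage libraries, and 9.5% all mutant MWM libraries above all WT MWM libraries. In RNA-Seq 2, WT homecage libraries held 40.6, 34.5 and 32.9 CPM and WT CFC libraries 43.2, 45.2, 39.6 and 46.9 CPM. Mutant CFC libraries held 32.6, 42.9, 39.4 and 42.2 CPM, and mutant homecage libraries 39.3, 60.9, 116 and 115 CPM. In the homecage mutants replicate 1 lay inside the WT homecage range, replicate 2 above every library of the other 3 groups, and replicates 3 and 4 higher again.

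With learning in WT mice, Bdnf had a log2 fold change of 0.21 (SE 0.053) and an adjusted p of 0.0729 (edgeR), above the threshold. It was higher in 3 of 3 MWM libraries and 3 of 4 CFC libraries than in any WT homecage library of the same experiment. With the replicate block it was 0.19 and passed with the RUVr factors (adjusted p = 0.0386) but not without them (0.545). DESeq2 gave 0.24 with an adjusted p of 0.00589, and over the 21 alternatives the adjusted p ranged from 0.00589 to 0.618 and passed in 4. Between the genotypes after learning the value was 0.0081 (SE 0.055, adjusted p = 0.965). The experiments taken alone gave values on opposite sides of 0, at 0.21 after MWM (SE 0.082, adjusted p = 0.813, edgeR, 0% of 22276 genes passed and 1286, or 5.77%, had an unadjusted p under 0.05) and -0.15 after CFC (SE 0.25, adjusted p = 1.00, 0.0106% passed and 2.34% had an unadjusted p under 0.05). Their difference was -0.37 on the log2 scale (SE 0.12, adjusted p = 0.755, edgeR interaction without RUVr factors).

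In homecage, the difference of mutants from WT mice in Bdnf was 1.18 on the log2 scale (SE 0.34, unadjusted p = 0.00702), and the adjusted p was 0.786 (edgeR, 7 libraries, 0.0107% of 18682 genes passed and 6.12% had an unadjusted p under 0.05). The group means were 82.7 ± 38.7 CPM (SD, n = 4) and 36.0 ± 4.05 CPM (SD, n = 3). Without replicates 3 and 4 the difference was 0.48 (SE 0.17) and the adjusted p 1.00. CFC against homecage in the mutants gave -1.05 (SE 0.25, adjusted p = 0.124, edgeR, 0% of 18851 genes passed, or 4 genes with the replicate block, and 2457, or 13%, had an unadjusted p under 0.05). It passed in DESeq2 (adjusted p = 0.0193, when 301 of 18851 genes passed) and with no filter on low counts (0.0233, when 55 of 35311 did). The edgeR fit without homecage replicate 1 gave -1.29 (adjusted p = 0.00133), and 999 of 18332 genes passed there. Without replicates 3 and 4 the value was -0.37 (adjusted p = 0.556), and 22 of 19770 genes passed. The interaction of genotype with training was -1.33 (SE 0.37, unadjusted p = 0.00241, adjusted p = 0.950, 0% of genes passed and 903, or 4.79%, had an unadjusted p under 0.05). Without homecage replicate 1 it was -1.57 with an adjusted p of 0.0265, when 63 of 18332 genes passed.

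The receptors were the steadiest of the 6. Ntrk2 (chromosome 13, 58806569 to 59133970, plus strand), the receptor for BDNF, held 597, 652 and 613 CPM in WT homecage, 678, 633 and 621 CPM in WT MWM and 601, 628 and 605 CPM in mutant MWM libraries of RNA-Seq 1. Its levels in RNA-Seq 2 were 529, 500 and 506 CPM in WT homecage, 518, 520, 518 and 472 CPM in WT CFC, 507, 465, 520 and 518 CPM in mutant CFC and 517, 464, 484 and 582 CPM in mutant homecage libraries. No pair of compared groups was free of overlap. Over the 9 comparisons the Ntrk2 value farthest from 0 was -0.072, between the genotypes after MWM (SE 0.096), and none passed.

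Ntrk3 (chromosome 7, 78175959 to 78738012, minus strand), the receptor for NT-3, held 335, 427 and 375 CPM in WT homecage, 389, 391 and 356 CPM in WT MWM and 349, 338 and 403 CPM in mutant MWM libraries of RNA-Seq 1. RNA-Seq 2 gave 210, 200 and 212 CPM in WT homecage, 208, 186, 221 and 209 CPM in WT CFC, 202, 205, 208 and 223 CPM in mutant CFC and 212, 192, 224 and 262 CPM in mutant homecage libraries. All compared groups overlapped here too. The value farthest from 0 was 0.10 between the genotypes in homecage (SE 0.094, adjusted p = 0.886, edgeR), and it was -0.035 without replicates 3 and 4. Replicate 4 of that group held the highest level of both receptors in RNA-Seq 2.

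Vgf (chromosome 5, 137026392 to 137033351, plus strand), a secreted precursor induced by neurotrophins, was slightly lower in trained mutants. It held 264, 287 and 194 CPM in WT homecage, 219, 243 and 219 CPM in WT MWM and 219, 188 and 222 CPM in mutant MWM libraries. In RNA-Seq 2 the levels were 159, 118 and 142 CPM in WT homecage, 159, 161, 131 and 136 CPM in WT CFC and 130, 139, 118 and 120 CPM in mutant CFC libraries. Of the 4 mutant CFC libraries, 3 lay below every WT CFC library, while the MWM groups overlapped. The mutant homecage libraries held 125, 147, 227 and 323 CPM, the last pair above all other libraries of that experiment.

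Between the genotypes after learning, Vgf fell by 0.16 on the log2 scale (SE 0.041, adjusted p = 0.0482, edgeR with 4 RUVr factors over 21489 genes), and it was the 1 member of 6 that passed, where 2.84% of all genes did. Of the members, 1 had an unadjusted p under 0.05, as did 18.2% of all genes. The median log2 fold change of the members was -0.00035 and that of all genes tested -0.0065. Without RUVr factors the size was the same (-0.16) and the adjusted p 0.488. The adjusted p was also above 0.05 with TMM normalization (0.0656), with no filter on low counts (0.0528), with 1 RUVr factor fewer (0.0698), with GC normalization (0.195) and without any one of 6 of the 14 libraries, WT MWM replicate 2, mutant MWM replicates 1 and 2, WT CFC replicate 1 and mutant CFC replicates 3 and 4. Over the 22 alternatives it ranged from 0.000201 to 0.488 and passed in 10. Learning itself gave Vgf a value of -0.014 in WT mice (SE 0.059, adjusted p = 0.933).

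Scg2 (chromosome 1, 79434669 to 79440120, minus strand), the precursor of secretoneurin, held 90.8, 101 and 125 CPM in WT homecage, 116, 106 and 130 CPM in WT MWM and 124, 133 and 123 CPM in mutant MWM libraries. RNA-Seq 2 gave 173, 180 and 185 CPM in WT homecage, 193, 197, 178 and 192 CPM in WT CFC and 167, 197, 171 and 199 CPM in mutant CFC libraries. The mutant homecage libraries held 192, 227, 266 and 360 CPM, all above the WT homecage libraries. It was the 1 member of 6 whose homecage groups did not overlap, as was true of 7.11% of the 15050 genes with a mean of at least 1 CPM, 3.24% of them higher in the mutants. That difference was 0.54 on the log2 scale (SE 0.18, unadjusted p = 0.0136, adjusted p = 0.786, edgeR) and 0.23 without replicates 3 and 4. Learning in WT mice gave 0.12 (SE 0.039, adjusted p = 0.146), and the genotype after learning 0.025 (SE 0.046, adjusted p = 0.836).

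**Figure D2:**
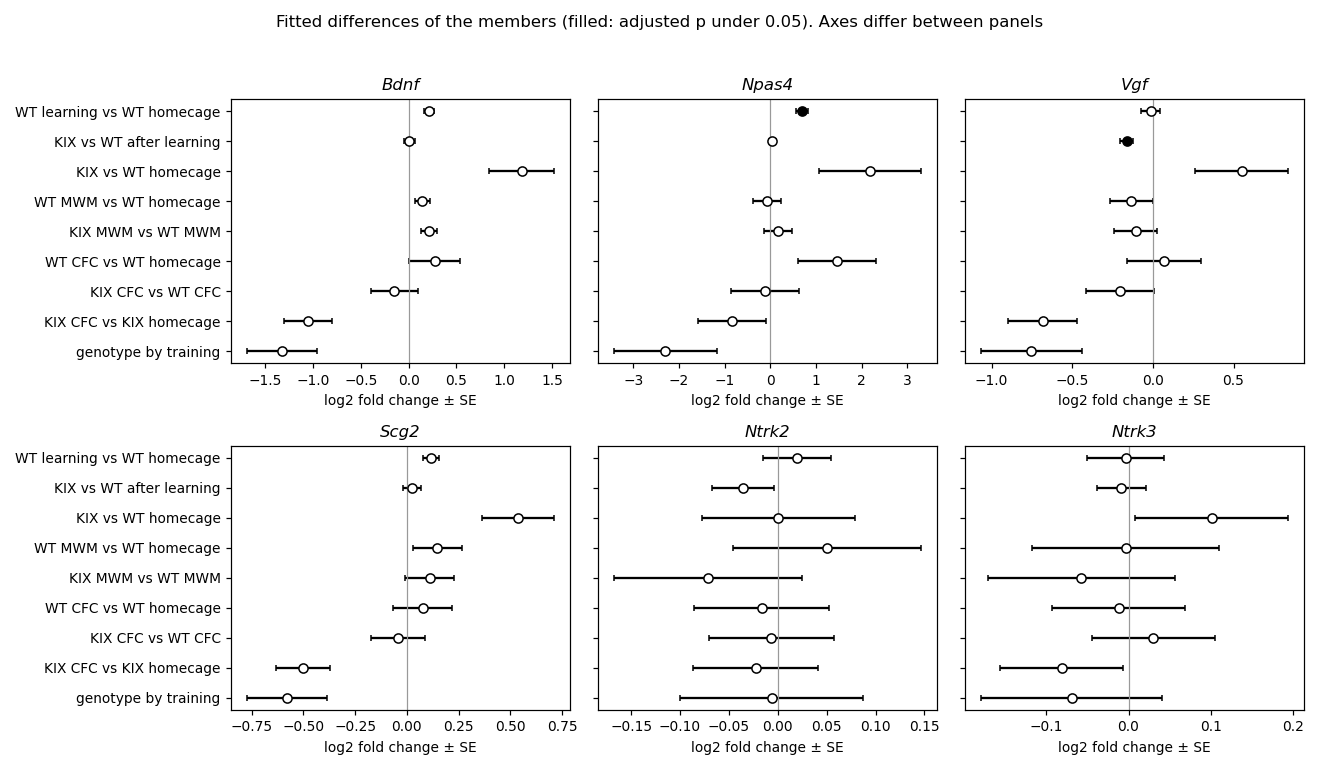
Fitted log2 fold changes with their standard errors for the 6 genes in the 9 comparisons, with filled points for an adjusted p under 0.05 and axes that differ between panels. The filled points are Npas4 in WT learning against homecage (0.70) and Vgf in the genotypes after learning (-0.16), and the wide bars of Npas4 belong to comparisons that take their spread from the mutant homecage libraries.

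The untrained mutants were therefore described library by library, each against the mean of the 3 WT homecage libraries of RNA-Seq 2. Replicate 1 lay within 1.23-fold of that mean for all 6 genes. Replicate 3 held 16.3-fold the mean of Npas4, 3.22-fold of Bdnf, 1.62-fold of Vgf and 1.48-fold of Scg2. Replicate 4 held 3.19-fold of Bdnf, 2.32-fold of Vgf and 2.00-fold of Scg2, with Npas4 at 0.80-fold. Bdnf, Vgf and Scg2 thus lay above the other 3 groups in both libraries, and Npas4 in the one and not in the other. Replicate 2 held 1.69-fold of Bdnf and 1.27-fold of Scg2, with Vgf at 1.06-fold and Npas4 at 0.69-fold. The activity-induced genes followed Npas4, with Egr2 at 54.1-fold, Fos at 25.8-fold and Arc at 8.30-fold in replicate 3, against 1.20-fold, 1.06-fold and 1.06-fold in replicate 4.

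Some other genes of the vesicle and the pathway also lay outside the range of the other 3 groups in these libraries. Chromogranins A and B (Chga and Chgb, vesicle granins) were at 177 and 749 CPM in replicate 3 and at 205 and 877 CPM in replicate 4, above the 107 to 123 CPM and 456 to 632 CPM of the 11 libraries of the other 3 groups. Pcsk5, a proprotein convertase, was at 37.2 and 51.4 CPM against 16.2 to 23.1 CPM. Ntf3, which encodes NT-3, was at 1.74 and 2.73 CPM against 5.35 to 9.69 CPM, and replicate 2 held 3.501 CPM. Pcsk1n, a granin-like inhibitor of a convertase, was at 242 and 182 CPM against 251 to 357 CPM. Ntf5, which encodes the TrkB ligand NT-4, was at 1.31 and 0.738 CPM against 0.119 to 0.567 CPM, near the count floor. Scg5, a granin that serves as a convertase chaperone, was at 129 and 111 CPM against 132 to 161 CPM. These genes were picked out after their values were seen. The share of all genes outside that range in replicates 3 and 4 is not reported here. The values are therefore a description and do not set the pathway apart from other genes. Of the 5 astrocyte markers, 2 lay above all 11 other libraries in replicate 3 and 3 in replicate 4, and their sum was 1699 and 2434 CPM against 1101 to 1222 CPM, with Gfap at 800 and 1442 CPM. Slc1a3 lay below those libraries in replicate 3, at 510 CPM against 513 to 552 CPM. Without Gfap the sum was 898 and 992 CPM, against 850 to 898 CPM in the other 3 groups. In replicates 1 and 2 the sum was 1183 and 1414 CPM, or 879 and 860 CPM without Gfap. Of the 5 microglia markers, C1qa lay above the 11 other libraries in all 4 mutant homecage libraries. Cx3cr1 did so in replicates 1 and 2, and Csf1r and Tmem119 in replicate 2. In replicate 4, Cx3cr1 and P2ry12 lay below all 11. The microglia sum was 227 CPM in replicate 2 and 189 CPM in replicate 4, against 175 to 214 CPM. CA1 markers summed to between 333 and 481 CPM in the 4 libraries against 522 to 557 CPM in WT homecage. CA3 markers summed to between 292 and 349 CPM against 252 to 285 CPM, and neither pair of ranges overlapped. The CA1 sums were 366 to 492 CPM in mutant CFC and 449 to 551 CPM in WT CFC. The CA3 sums there were 259 to 304 CPM and 273 to 278 CPM. Against all 11 libraries of the other 3 groups, both ranges thus overlapped. Over the whole group, microglia, oligodendrocyte, endothelial and choroid plexus sums of the group overlapped those of WT homecage mice, and the share of mitochondrial counts was between 4.81% and 5.46% in all of RNA-Seq 2. The part of these markers in the members' values was not tested, and in bulk tissue more cells of a type cannot be told apart from more RNA per cell. Replicates 3 and 4 had 16.6 and 15.9 M counts, against 36.9 and 46.1 M in replicates 1 and 2. Replicates 3 and 4 were also the shallower in WT CFC (20.6 and 18.2 M) and mutant CFC (18.3 and 16.8 M). In WT homecage, replicate 3 was the shallowest, at 15.4 M. The part of depth in these values was not tested.

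**Figure D3:**
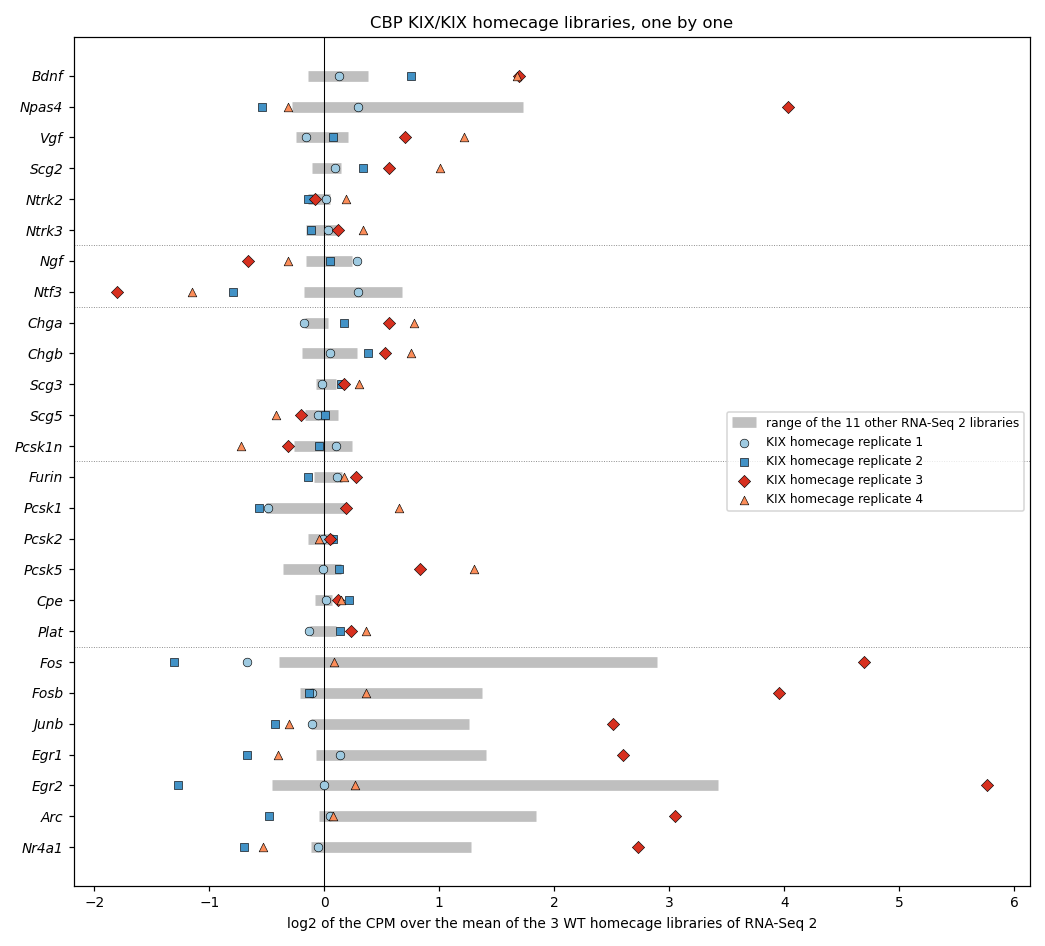
Each mutant homecage library against the mean of the 3 WT homecage libraries of RNA-Seq 2, as a log2 ratio of CPM, with a grey bar for the range of the 11 libraries of the other 3 groups. Replicate 3 lies right of the bar for Bdnf, Npas4, Vgf, Scg2 and all 7 activity-induced genes, while replicate 4 lies right of it for Bdnf, Vgf and Scg2 (3.19-fold, 2.32-fold and 2.00-fold), and by less for Ntrk2 and Ntrk3, but not for Npas4 or the activity-induced genes.

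The rest of the pathway was read against the share of all genes that passed, 1.05% with learning and 2.84% between the genotypes, or 17.3% and 18.2% at an unadjusted p under 0.05. Of the 32 Trk adaptors and kinases, 0 passed with learning (edgeR, 10 with an unadjusted p under 0.05 and a median of -0.00080). Between the genotypes 7 of them had an unadjusted p under 0.05 and 1 passed, Pik3ca, a catalytic PI3 kinase subunit (0.11, SE 0.028, adjusted p = 0.0415). None of the 3 other neurotrophins passed in any of the 9 comparisons. Ntf3 had the lowest p of them between the genotypes after learning, with 0.29 (SE 0.11, adjusted p = 0.156). Of the other receptors, all 3 tested between the genotypes after learning had a value below 0 with an unadjusted p under 0.05, and 1 passed. That was Sorcs2, a sorting receptor that binds the BDNF precursor (-0.13, SE 0.030, adjusted p = 0.0344). Ngfr, the receptor p75, had -0.39 (SE 0.13, adjusted p = 0.131) and Sort1, which encodes sortilin, -0.086 (SE 0.032, adjusted p = 0.155).

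Pcsk1, the convertase PC1/3 that cuts granins in dense-core vesicles, moved in both comparisons. It held 11.1, 11.2 and 17.2 CPM in WT homecage, 15.7, 17.2 and 20.5 CPM in WT MWM and 13.5, 14.99 and 14.3 CPM in mutant MWM libraries. In RNA-Seq 2 it held 26.1, 25.4 and 23.8 CPM in WT homecage, 28.1, 28.8, 27.6 and 25.03 CPM in WT CFC and 25.5, 17.7, 20.5 and 24.7 CPM in mutant CFC libraries. The mutant homecage libraries held 17.9, 17.0, 28.6 and 39.3 CPM, the first pair below and the last pair above every WT homecage library. All trained mutants but 1 lay below every trained WT library of their experiment. It rose with learning by 0.28 on the log2 scale (SE 0.063, adjusted p = 0.0498, edgeR) and fell by 0.31 in the mutants after learning (SE 0.043, adjusted p = 0.00191). It was the 1 of 6 processing enzymes to pass in either, beside 1.05% and 2.84% of all genes. The 2 comparisons share the trained WT libraries. Of the 5 other granins 0 passed in either, with 1 and 2 at an unadjusted p under 0.05, as were 17.3% and 18.2% of all genes, and Chga had the lowest p (-0.091, SE 0.032, adjusted p = 0.141). Arnt2, the dimer partner of Npas4 in neurons, was lower in the mutants after learning (-0.19, SE 0.027, adjusted p = 0.00276), the 1 of 5 partners and relatives to pass. Without RUVr factors none of Pik3ca, Sorcs2, Pcsk1 and Arnt2 passed in either comparison.

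**Figure D4:**
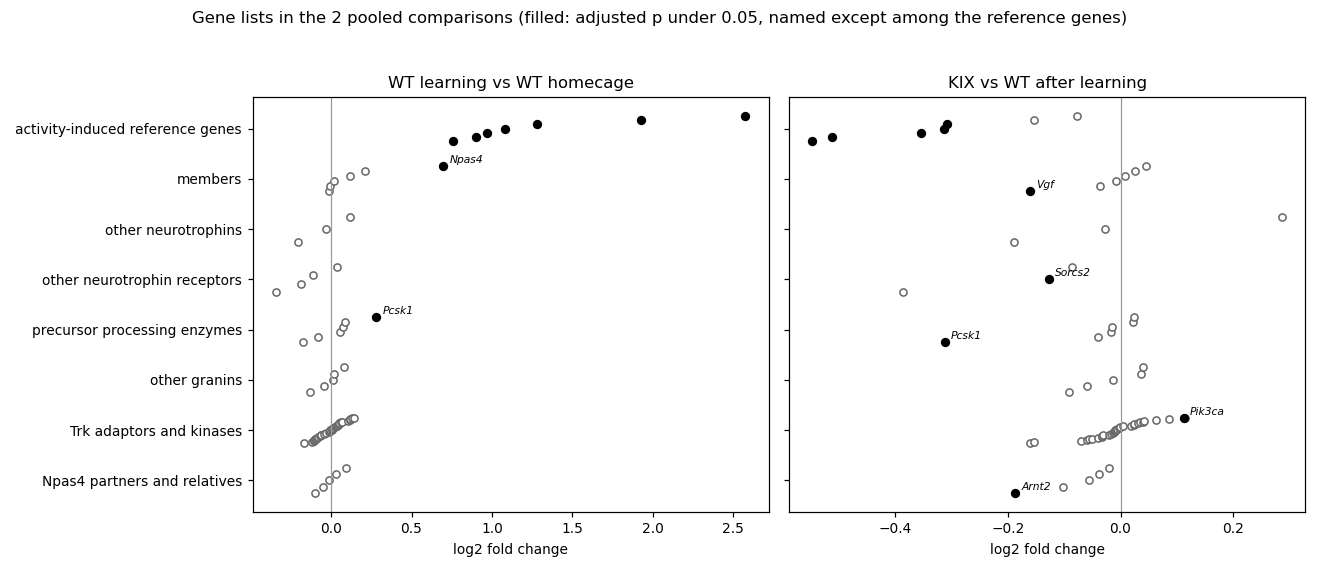
Log2 fold changes of the genes of 8 lists in WT learning against homecage and in mutant against WT mice after learning, with filled points for an adjusted p under 0.05. The 7 activity-induced genes stand to the right with learning, Npas4 (0.70) and Pcsk1 (0.28) with them, and all 7 stand to the left in the mutants, 5 of them filled, as do Vgf (-0.16) and Pcsk1 (-0.31).

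Some cell type markers moved with the same comparisons, and their part in the members' values was not tested. Without RUVr factors none of the markers passed, either in WT learning or between the genotypes after learning. Between the genotypes after learning the CA1 markers Mpped1 and Fibcd1 (-0.28 and -0.30, adjusted p = 0.000655 and 0.0222) and the astrocyte markers Gfap and Aldh1l1 were lower (-0.29 and -0.26, adjusted p = 0.00191 and 0.00432). The CA3 marker Iyd (0.44), the dentate marker Prox1 (0.21) and the astrocyte marker Gja1 (0.16) were higher, and Sst, of inhibitory neurons, was lower (-0.19), each with an adjusted p between 0.0081 and 0.045. With learning in WT mice, all 6 choroid plexus markers had a value above 0 with an unadjusted p under 0.05 (median 1.35), and 1 passed (Folr1, 1.51, adjusted p = 0.0475), and 1 of 4 endothelial markers was lower (Cldn5, -0.49, adjusted p = 0.0291). In 3 further lists the lowest p belonged to Csf1r (microglia, -0.078, adjusted p = 0.232), Mag (oligodendrocytes, -0.099, 0.523) and Calb2 (thalamus and habenula, -0.22 with learning, 0.1002).

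Levels were compared between genes per kilobase of annotated exon (RPKM, CPM over kilobases). In RNA-Seq 1 the vesicle genes stood above the receptors and these above the ligand. The mean over 9 libraries was 76.8 ± 10.6 RPKM (SD) for Vgf, 46.3 ± 5.63 for Scg2, 32.4 ± 1.35 for Ntrk2, 12.4 ± 1.05 for Ntrk3, 5.46 ± 0.621 for Bdnf and 2.496 ± 0.771 for Npas4, with no neighbours whose spreads met. In RNA-Seq 2 the mean over 15 libraries was 81.5 ± 19.6 RPKM for Scg2, 52.3 ± 18.1 for Vgf, 26.3 ± 1.54 for Ntrk2, 8.27 ± 4.32 for Bdnf, 7.01 ± 0.581 for Ntrk3 and 5.07 ± 6.67 for Npas4. There the spreads of Scg2 and Vgf met, and those of Bdnf, Ntrk3 and Npas4. The Bdnf mean includes mutant homecage replicates 3 and 4, at 18.7 and 18.5 RPKM, and the other 3 groups had means of 5.79, 7.03 and 6.32 RPKM, with WT CFC the highest of them. Since the length counts every annotated exon, genes with many isoforms, such as Ntrk2 and Ntrk3, come out lower than their used transcripts would.

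Across the 24 libraries, with each experiment centred on its mean, log2 CPM of Bdnf followed Scg2 (Pearson r = 0.877) and Vgf (0.764), and Vgf followed Scg2 (0.622). Without mutant homecage libraries 3 and 4 these were 0.688, 0.067 and -0.346 over 22 libraries, so that the relations with Vgf rested on that pair. Bdnf and Npas4 had an r of 0.268 and, without the pair, -0.030. Among 14260 genes, those most like Npas4 were Ier2 (0.938), Egr4 (0.916), Junb (0.907), Trib1 (0.905) and Fosb (0.901). Ier2 led again without the pair (0.894). The genes most like Bdnf were Trak2 (0.918), Acvr1c (0.918), Prss23 (0.915), Rgs4 (0.909) and Tpm1 (0.903), and without the pair none of these was among the first 5, which were led by Polr1d (0.739). The libraries of one experiment share a run and a library type, and these correlations are descriptions.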

How the data were processed

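Dorsal hippocampal RNA of 24 libraries was analysed, in 7 groups of 3 or 4 taken from the labels. The authors aligned the reads with STAR and counted them per gene with featureCounts (1.4.4, per the labels, with SAMtools 1.6, mm10/GRCm38), and deposited raw counts without scaling. The annotation release and the strand setting are not given in the sources used here. Of 51826 gene identifiers, 51633 were in GENCODE M21. Genes were filtered with filterByExpr, normalized by upper quartile and tested with edgeR 4.0.16 (R 4.3.3, quasi-likelihood, Benjamini-Hochberg, threshold 0.05), with the experiment as block and 3 or 4 RUVr factors in the pooled comparisons, after the study's methods. The study's GC normalization was an alternative (10 bins). Further alternatives were TMM, DESeq2 1.42.0, no filter, fewer or no factors, the compared groups alone, a replicate block and leaving out each library. Leaving out CBP KIX/KIX homecage libraries 3 and 4, the block with factors and the difference between experiments were chosen after seeing the data. The fits other than the interaction were tested on simulated data with 200 genes changed by 1 on the log2 scale. They recovered 88% to 99% of these genes, and 1.68% to 7.32% of the calls were false. The simulation gave every gene the same spread and held no outlying library and no unwanted variation. It therefore does not bear on calls that rest on such libraries or on the RUVr factors. SE is the log2 fold change over the root of F.

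The members and the gene lists were chosen with earlier results of these data known. Named were the 6 members, list genes with an adjusted p under 0.05 in any comparison, the gene with the lowest p of each list in the pooled comparisons, and the 5 genes most like Npas4 and Bdnf (mean of at least 1 CPM in both experiments, pseudocount 0.5). Some genes that this rule names are not reported here. Libraries of a group differed by more than sampling noise (chi-square per gene 2.74 to 91.4 over 30 pairs). Same-numbered libraries correlated above 0.1 (deviations from group means) in 6 of 6 pairs of WT homecage with trained libraries and 4 of 4 such mutant pairs. They did so in 3 of 7 pairs of trained genotypes. The numbers were therefore taken as pairs, from the data alone, for trained against homecage. Over all pairs of groups, differently numbered libraries also did so in 4 of 18 pairs of RNA-Seq 1 and 14 of 63 of RNA-Seq 2. Mutant CFC replicate 1 with homecage replicate 2 gave 0.213, within the 0.146 to 0.248 of same-numbered mutant pairs. The pairing is thus not certain. The study gives as many trained mice as libraries. For WT homecage it gives 3 mice beside MWM and 4 beside CFC, where 3 libraries were at hand. For mutant homecage libraries the number of mice is not stated. The p-values measure the spread between libraries, and count floors cover counting error only.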

Additional observations from a re-analysis of the deposited data

Results flagged for a closer look

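Values in 2 groups stood far from the other 3 of their group by Dixon's test (gap over range above 0.829), which was applied to 18 groups of 4, the 6 genes in each of 3 groups. By chance about 5% of such groups are picked out. Npas4 in CBP KIX/KIX homecage replicate 3 was at 118 CPM, with the other 3 libraries between 4.97 and 8.84 CPM and a gap over range of 0.966. Ntrk2 in WT CFC replicate 4 was at 472 CPM, with the other 3 libraries at 518, 520 and 518 CPM and a gap over range of 0.961.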

How the results depend on the processing

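In WT learning against homecage, 1 member passed, against 3 with DESeq2, 2 with the replicate block and the RUVr factors, and 0 with no factors, 1 factor fewer, the block without factors or GC normalization, and between 0 and 3 without single libraries. Between the genotypes after learning 1 passed, against 0 with TMM, no filter, no factors, 1 factor fewer, the block without factors or GC normalization. Without single libraries it was 0 to 1. In mutant CFC against mutant homecage 0 passed, against 2 with DESeq2, 1 with no filter, 1 without mutant homecage libraries 3 and 4 and 0 to 3 without single libraries. Over all genes 0 passed there, against 301, 55, 22 and 0 to 999 in the same order. In WT CFC against homecage 0 passed, against 1 with the compared groups alone and 1 without mutant homecage libraries 3 and 4, when 21 and 20 of all genes did. The interaction gave 0, and 1 without mutant homecage replicate 1, when 63 of all genes passed. The cause was not tested. Over all genes, 231 passed with learning, against 9 with no factors, 105 with 1 fewer, 135 with TMM (88 higher and 47 lower, against 89 and 142), 143 with no filter, 42 with GC normalization, 821 with DESeq2 and, with the block, 905 with the factors and 12 without. Between the genotypes 610 passed (254 higher and 356 lower), against 4, 371, 514, 308 (70 higher and 238 lower), 207, 933, 2780 and 8 in the same order. Without single libraries, between 36 and 2274 genes passed with learning and between 233 and 1022 between the genotypes. Between the genotypes the replicate numbers were not taken as pairs, since same-numbered libraries correlated above 0.1 in 3 of 7 pairs after learning and 2 of 3 in homecage. In the trained against homecage comparisons, where they were, the block changed no call of a member beside those of Bdnf and Npas4 in WT learning. Of the values of single members under the alternatives, 714 kept their direction and side of the threshold, 15 came to pass, 19 ceased to pass and 86 changed sign. None of the changes of sign but Npas4 in mutant CFC against homecage passed the threshold there. The values that changed sign were, with TMM, Ntrk3 0.010 and Vgf 0.00061 in WT learning and Ntrk3 0.048 in WT MWM. With DESeq2 they were Ntrk3 0.021 and Vgf 0.011 in WT learning and Ntrk3 0.062 in WT MWM. With GC normalization they were Vgf 0.061 in WT learning, Bdnf -0.063 and Ntrk2 0.017 in the genotypes after learning and Ntrk2 -0.028 in the genotypes in homecage. With the replicate block they were Ntrk2 -0.064 in the genotypes in homecage, Ntrk3 0.0015 in WT MWM and Ntrk2 0.0078 in the interaction. Without mutant homecage libraries 3 and 4 they were Ntrk2 -0.056, Ntrk3 -0.035, Vgf -0.031 and Npas4 -0.081 in the genotypes in homecage, Ntrk2 0.021, Ntrk3 0.042 and Npas4 1.42 in mutant CFC against homecage and Ntrk2 0.040 and Ntrk3 0.056 in the interaction. With no filter it was Ntrk3 0.028 in WT MWM. With the compared groups alone it was Ntrk3 0.0025 in WT MWM. Leaving out single libraries gave ranges of Vgf -0.084 to 0.044, Ntrk3 -0.042 to 0.033 and Ntrk2 -0.0065 to 0.037 in WT learning. The ranges were in the genotypes after learning Bdnf -0.030 to 0.071, Ntrk3 -0.037 to 0.013, Npas4 -0.050 to 0.15 and Scg2 -0.0087 to 0.054, in the genotypes in homecage Ntrk2 -0.060 to 0.040 and Npas4 -0.15 to 2.57, in WT MWM Npas4 -0.49 to 0.20 and Ntrk3 -0.086 to 0.093 and in the genotypes after MWM Npas4 -0.025 to 0.58. The ranges were in WT CFC Ntrk2 -0.031 to 0.020, Vgf -0.037 to 0.17 and Ntrk3 -0.045 to 0.035, in the interaction Ntrk2 -0.055 to 0.051, Npas4 -2.69 to 0.033 and Ntrk3 -0.14 to 0.0078, in the genotypes after CFC Ntrk2 -0.043 to 0.023 and Ntrk3 -0.019 to 0.065 and in mutant CFC against homecage Ntrk2 -0.069 to 0.037 and Npas4 -1.23 to 1.496.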
